A study of Mus musculus with 47 samples.

Results

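Crypts and villi of the small intestine were compared in wild-type C57BL/6 mice kept on the purified diet Ain76A. The arrays compared are 8 of 47, the 4 titled as crypt and the 4 titled as villus. They are those of mice that received Ain76A from weaning for 1 year and whose labelled age is 1 year. Every probe set of these arrays was considered, and differences are given as log2 crypt minus villus. The other groups of the series are wild-type, Apc1638N/+ and p21-/- mice on Ain76A for 3 months from weaning, whose labelled age is also 3 months, and wild-type mice on the diets NWD1 or NWD2 for 1 year. From these, the crypts and villi of wild-type mice on Ain76A for 3 months and of mice on NWD1 and on NWD2 for 1 year are set beside the 8 arrays, with 4 arrays per tissue except 3 for NWD2 villi. All groups compared here are wild type and all are C57BL/6. The scaling and the fit used all 47 arrays in 12 groups, those of Apc1638N/+ and p21-/- mice included. These other arrays therefore enter the normalized levels, SEs and p-values. Whether the arrays of a group stem from different mice is not labelled. The spread within groups, on which the p-values rest, may thus be technical. A crypt or villus preparation is bulk tissue, so fewer cells of a type and less RNA per cell cannot be told apart.

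The epithelium of the small intestine is renewed from stem cells at the crypt base. Their progeny divide in the crypt, leave the cell cycle as they move onto the villus, and become absorptive enterocytes, goblet, enteroendocrine or tuft cells, while Paneth cells stay at the crypt base and secrete antimicrobial proteins. Enterocytes of the villus carry the brush border, where sugars and peptides are cut and absorbed, and assemble absorbed fat into chylomicrons.

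The arrays fell into their labelled tissues. Over 14995 probe sets measured on all 8 arrays, Pearson's r was 0.966 to 0.978 among crypt arrays, 0.962 to 0.977 among villus arrays and 0.743 to 0.823 between the tissues, a description across probe sets that share the array and its scaling. Between 20230 and 23296 probe sets were measured per array. One sign of RNA quality moved with tissue: the 3' probe set of the actin control exceeded the 5' probe set by 0.70 to 1.06 in crypts and by 0.32 to 0.53 in villi, on the log2 scale, with no overlap. The exact two-sided permutation p was 0.0286, the smallest that 4 against 4 arrays can give, and 0.143 after adjustment over 5 array measures. The same measure for the Gapdh control overlapped between tissues (exact permutation p = 0.486). The part of the actin measure in the gene differences was not tested.

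Of 8822 genes tested, 4620 were called at an adjusted p under 0.05, which is 52.4% (limma with Benjamini-Hochberg adjustment). Of these, 2369 were higher in crypts (26.9% of the genes tested) and 2251 were higher in villi (25.5%). The levels of the 4 crypt arrays and the 4 villus arrays did not overlap for 58.9% of the genes tested. The median difference over all genes tested was 0.00, and that value and these percentages are the background for the gene lists below. Differences beyond 1 on the log2 scale, a change of 2-fold, were reached by 1431 called genes in crypts and 1331 in villi. Differences beyond 4, which is 16-fold, were reached by 6 called genes in crypts and 17 in villi. The median SE of a difference was 0.26.

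**Figure D1:**
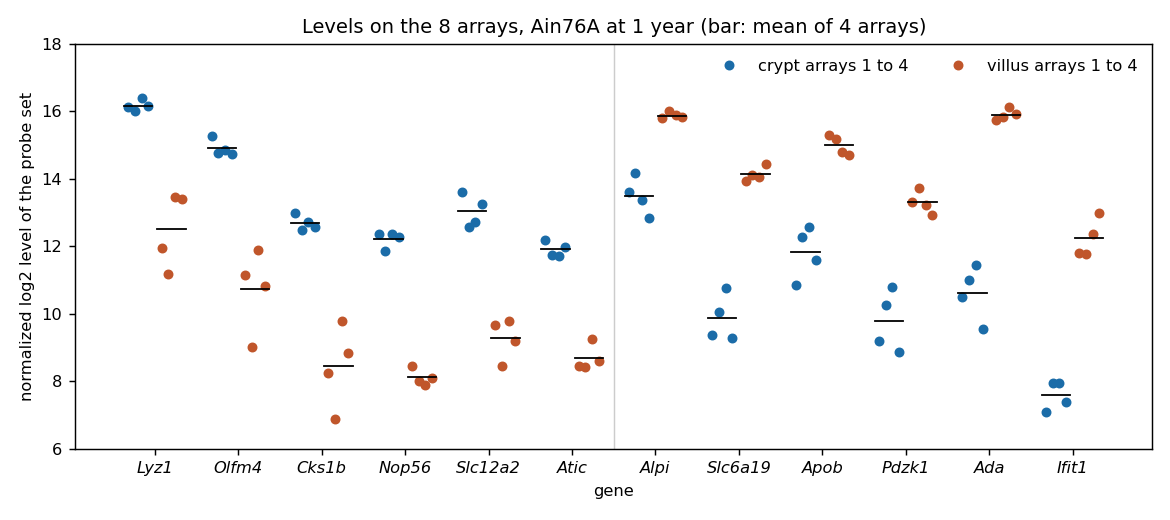
Normalized log2 levels of 12 genes (horizontal axis) on the 4 crypt arrays (blue) and 4 villus arrays (orange), each point an array and each bar the mean of 4. In every gene shown the tissues do not overlap, and Lyz1 and Olfm4 spread more over the villus arrays than over the crypt arrays.

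By the size of the difference, the genes furthest above villi in crypts were Ang4 (4.51 ± 0.53, SE), Cks1b (4.25 ± 0.45), Olfm4 (4.18 ± 0.52), Nop56 (4.10 ± 0.36), Defa39 (4.05 ± 0.49), Cdc20 (4.03 ± 0.43), Stmn1 (3.96 ± 0.37), Kcne3 (3.95 ± 0.46), Myb (3.89 ± 0.49) and Snhg1 (3.86 ± 0.25). Snhg1 is a host of small nucleolar RNAs, and Myb is a transcription factor of proliferating progenitors. Snhg1 stood at 13.36, 13.14, 13.09 and 13.20 on crypt arrays 1 to 4 and at 9.22, 9.22, 9.40 and 9.50 on villus arrays 1 to 4. Both tissues were tight and far apart, and its adjusted p of 6.02e-15 was the smallest of the 20 genes named here for size.

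The genes furthest above crypts in villi were Pmp22 (-5.89 ± 0.74), Clca4a (-5.86 ± 0.63), Enpp3 (-5.59 ± 0.48), Nt5e (-5.56 ± 0.51), Ada (-5.28 ± 0.50), Rdh9 (-4.68 ± 0.56), Ifit1 (-4.64 ± 0.45), Bst1 (-4.39 ± 0.51), Mbl2 (-4.37 ± 0.55) and Ptprr (-4.28 ± 0.44). Enpp3 and Nt5e handle extracellular nucleotides, and Ada deaminates adenosine. Rdh9 is a retinol dehydrogenase, and Bst1 is a surface enzyme that breaks down NAD. Pmp22, a membrane protein best known from myelin, stood at 7.60, 7.33, 9.93 and 6.95 in crypts and at 13.93, 14.28, 14.20 and 12.96 in villi. The tissues did not overlap, crypt array 3 lay well above the other crypt arrays, and the fold was 59.5 in favour of villi (adjusted p = 1.34e-08). Clca4a behaved alike on the arrays, at 9.06, 9.12, 11.78 and 8.29 in crypts and 15.36, 15.58, 15.45 and 15.32 in villi.

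All 6 Paneth cell genes that could be tested were higher in crypts, with a median difference of 3.72. Lyz1, which encodes the lysozyme of Paneth granules, stood at 16.13, 16, 16.41 and 16.16 in crypts and at 11.95, 11.19, 13.48 and 13.41 in villi. No villus array reached a crypt array, yet villus arrays 3 and 4 lay more than 1 log2 unit above villus arrays 1 and 2. The difference was 3.67 ± 0.40, or 12.7-fold (adjusted p = 1.05e-09). Defa39, an alpha-defensin, repeated that order, at 15.46, 15.10, 15.68 and 15.43 in crypts and 10.30, 10.15, 12.48 and 12.54 in villi. Ang4, an antimicrobial ribonuclease, reached 14.36, 13.32, 13.98 and 13.87 in crypts against 8.88, 8.55, 10.02 and 10.02 in villi. The lectin Itln1 differed by 3.78 ± 0.51 and the pentraxin Mptx1 by 2.96 ± 0.71. Cd24a, which marks Paneth and other secretory cells, differed least, by 0.84 ± 0.34, and its groups overlapped. Cd24a no longer passed without crypt array 1, 3 or 4 or villus array 2 or 3 (adjusted p = 0.0557 to 0.127). The probe sets of Lyz1, Defa39 and Ang4 can bind transcripts of near-identical family members, so their identity within each family is uncertain. Lyz2, the near copy of Lyz1 in macrophages, was also higher in crypts (3.27 ± 0.39), and the signal of these probe sets cannot be assigned with certainty to either gene.

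Stem cell genes were higher in crypts in 7 of 10 tested members, none was higher in villi, and the median difference was 1.98. Olfm4, a secreted glycoprotein of crypt base columnar cells, stood at 15.26, 14.77, 14.85 and 14.74 in crypts and 11.17, 9.01, 11.90 and 10.82 in villi. The tissues were separate, with the lowest villus level on array 2, and the fold was 18.1 (adjusted p = 1.61e-08). Smoc2, a matricellular protein, differed by 2.82 ± 0.40 and was blank on villus array 2. Cdca7 (3.22 ± 0.29), a target of Myc, and Lrig1 (2.45 ± 0.40), a brake on growth factor receptors, were also higher in crypts. Axin2, a feedback inhibitor of Wnt signalling, did not pass (0.74 ± 0.39, adjusted p = 0.107), although its crypt arrays at 9.89 to 10.16 lay above its villus arrays at 8.81 to 9.52. It passed in the deposited scaling (0.85, adjusted p = 0.0439) and in a fit of the 8 arrays alone (adjusted p = 0.00194). The ubiquitin ligase Rnf43 gave -0.39 ± 0.35 (adjusted p = 0.354). Lgr5, the receptor that marks these stem cells, was measured on all crypt arrays, at 9.58, 9.15, 8.94 and 8.41, and on no villus array. Ascl2, their transcription factor, was likewise present only in crypts, at 9.29, 7.0, 7.26 and 8.14. A blank has no level here, so no fold can be given for Lgr5 or Ascl2.

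Genes of mitosis were almost all higher in crypts: 37 of 38 tested members were higher in crypts, none in villi, with a median of 2.92. Cks1b, a cofactor of cyclin-dependent kinases, stood at 13.00, 12.50, 12.71 and 12.59 in crypts and 8.25, 6.87, 9.80 and 8.85 in villi. The crypt arrays lay close together and the villus arrays were spread widely, with no overlap. Cdc20, the activator of the anaphase-promoting complex, stood at 12.88, 12.28, 12.44 and 12.90 in crypts and 8.56, 7.27, 9.38 and 9.17 in villi. For both genes villus array 2 was lowest and villus array 3 highest. Cdk1, the mitotic kinase, gave 12.20, 12.14, 12.05 and 11.62 in crypts, 8.50, 8.79 and 7.82 on villus arrays 1, 3 and 4, and a blank on villus array 2. Its difference was 3.63 ± 0.37 (adjusted p = 1.05e-09). Mki67 (3.55 ± 0.44), the proliferation antigen, Top2a (3.44 ± 0.39), which untangles replicated DNA, and Ccnb2 (3.47 ± 0.36), a mitotic cyclin, lay in the same range. Cdc25a, a phosphatase that starts S phase, was the member that did not pass (-0.05 ± 0.29, adjusted p = 0.9).

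Promoter sequences of 4 of these genes are shown because mitotic genes were almost all higher in crypts. Each is the 160 bases before the annotated start in RefSeq (GRCm38.p6), 5' to 3' on the strand of the gene. Capitals mark CCAAT, which the factor NF-Y is known to bind, and TTTGAA, the core of the cell cycle homology region, each on either strand. The windows are chr10:69352913-69353072 (minus strand) for Cdk1, chr4:118437344-118437503 (minus) for Cdc20, chr3:89418292-89418451 (minus) for Cks1b and chr9:70421555-70421714 (minus) for Ccnb2.
Cdk1: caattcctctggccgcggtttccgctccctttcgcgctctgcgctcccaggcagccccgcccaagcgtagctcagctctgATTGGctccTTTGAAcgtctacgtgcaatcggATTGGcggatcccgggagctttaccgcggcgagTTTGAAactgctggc
Cdc20: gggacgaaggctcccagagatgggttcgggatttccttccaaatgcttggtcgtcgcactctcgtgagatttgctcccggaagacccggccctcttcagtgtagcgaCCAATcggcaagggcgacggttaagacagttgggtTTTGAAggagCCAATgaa
Cks1b: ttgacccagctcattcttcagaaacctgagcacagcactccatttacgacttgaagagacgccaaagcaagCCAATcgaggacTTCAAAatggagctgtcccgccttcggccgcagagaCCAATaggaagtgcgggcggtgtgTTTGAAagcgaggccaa
Ccnb2: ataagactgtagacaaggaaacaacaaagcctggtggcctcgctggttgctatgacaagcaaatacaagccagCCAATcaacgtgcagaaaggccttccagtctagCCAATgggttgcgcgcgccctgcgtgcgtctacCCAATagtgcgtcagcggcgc
Cdk1, Cdc20 and Cks1b each held 2 copies of CCAAT in this window, and Ccnb2 held 3. TTTGAA occurred 2 times for Cdk1, 1 time for Cdc20, 2 times for Cks1b and 0 times for Ccnb2. In the 250 bases before the start, CCAAT was present in 23 of the 32 mitosis genes matched by symbol, or 71.9%, against 34.5% of 27025 promoters in the table and 38.6% of the genes higher in crypts. TTTGAA was present in 13 of those 32, or 40.6%, against 16.3% of all promoters. The DNA replication list held CCAAT in 56.0% and TTTGAA in 8.0% of 25 promoters. The matches describe letters in a window and not bound sites.

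DNA replication genes were higher in crypts in 25 of 29 tested members, with none higher in villi and a median of 2.05. Prim1, the primase subunit that starts new strands, stood at 11.55, 11.43, 11.41 and 10.88 in crypts and 7.60, 6.95, 8.32 and 7.73 in villi (3.67 ± 0.35, adjusted p = 8.05e-11). The helicase subunits Mcm5 (3.38 ± 0.38), Mcm7 (3.12 ± 0.26) and Mcm3 (2.96 ± 0.38) were also higher in crypts. In all, 4 members did not pass, among them the licensing factor Cdc6 (0.53 ± 0.36) and the cyclin Ccne2 (-0.32 ± 0.38). Cdc6 passed in the deposited scaling (0.83, adjusted p = 0.0465) and in the fit of the 8 arrays alone (adjusted p = 0.0327). In addition, 5 members were measured in crypts only, among them Tyms, which makes thymidylate, and Orc1, a subunit of the origin recognition complex.

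The machinery that makes ribosomes was higher in crypts without exception among the genes tested. All 41 tested genes of ribosome biogenesis passed, with differences from 0.49 to 4.10 and a median of 2.0. Nop56, a core protein of the particles that methylate ribosomal RNA, stood at 12.38, 11.87, 12.37 and 12.27 in crypts and 8.46, 8.02, 7.90 and 8.10 in villi, a difference of 17.2-fold (adjusted p = 2.24e-11). Its villus arrays lay close together. Npm1, the abundant nucleolar chaperone, differed by 2.80 ± 0.27, and Ddx52, an RNA helicase, least, by 0.49 ± 0.20. Ddx52 no longer passed without crypt array 1, 2 or 4 or villus array 1 or 2 (adjusted p = 0.0507 to 0.106). Of 43 cytosolic ribosomal proteins, 40 were higher in crypts and none in villi, with a median of 1.91. Rpl12 led them at 3.19 ± 0.30, while Rps27 gave 0.01 ± 0.50. Their mean level was 14.48 to 14.57 on the crypt arrays and 12.37 to 12.95 on the villus arrays. A further 35 of the 80 listed ribosomal proteins had no probe set of their own symbol alone.

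Digestive enzymes of the brush border were higher in villi. All 5 tested members of the disaccharidase and phosphatase list passed, with a median of -2.61. All 12 tested peptidases passed too, with a median of -2.16. The first list includes Enpp3 (-5.59 ± 0.48), which handles extracellular nucleotides and is counted under purine handling too. Lct, which splits lactose, stood at 12.51, 13.47, 13.58 and 11.57 in crypts and 15.66, 15.91, 15.04 and 14.97 in villi (-2.61 ± 0.43, adjusted p = 2.08e-06). Alpi, the intestinal alkaline phosphatase, stood at 13.60, 14.18, 13.37 and 12.85 in crypts and 15.80, 16.02, 15.88 and 15.82 in villi. For both, crypt array 4 was lowest and the tissues were separate. Treh, which splits trehalose, differed by -3.24 ± 0.46 and Mgam, which digests starch, by -1.93 ± 0.28. Sis, the sucrase, had no probe set of its own symbol and is not given. Among peptidases the largest differences were those of Dpep1 (-3.0 ± 0.42), a dipeptidase, Mme (-2.83 ± 0.49), the enkephalinase, and Ace (-2.66 ± 0.69), the angiotensin-converting enzyme. Ace was uneven among villi, at 13.45, 13.59, 12.14 and 12.05, with arrays 1 and 2 high and arrays 3 and 4 low.

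Nutrient transporters were mostly higher in villi, with exceptions among amino acid carriers. Of 12 genes of sugar handling, 10 were higher in villi and none in crypts, with a median of -1.91. Slc2a5, the fructose carrier, differed by -3.20 ± 0.51, Slc2a2, which passes sugars to the blood side, by -2.18 ± 0.43, and Slc5a1, the sodium-glucose carrier, by -1.60 ± 0.29. Of 17 tested carriers of peptides and amino acids, 11 were higher in villi and 3 in crypts. Slc6a19, the apical carrier of neutral amino acids, stood at 9.37, 10.05, 10.76 and 9.28 in crypts and 13.95, 14.11, 14.07 and 14.44 in villi, a 19.4-fold difference (adjusted p = 2.49e-09). Slc15a1, the carrier of di- and tripeptides, was 10-fold higher in villi (-3.33 ± 0.46). The exceptions were Slc1a1, an anionic amino acid carrier (2.31 ± 0.30), Slc1a5, a glutamine carrier (1.49 ± 0.32), and Slc38a2, a starvation-induced carrier (1.05 ± 0.20). With the mean of its probe sets Slc38a2 gave 0.43 and did not pass (adjusted p = 0.407). Slc7a5, a carrier of large neutral amino acids, was measured in crypts only.

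Fat absorption genes were higher in villi in 25 of 28 tested members, none was higher in crypts, and the median was -1.74. Apob, the scaffold of chylomicrons, stood at 10.86, 12.28, 12.58 and 11.61 in crypts and 15.31, 15.18, 14.80 and 14.70 in villi (-3.17 ± 0.45, adjusted p = 1.81e-07). The tissues were separate, and crypt arrays 2 and 3 stood above crypt arrays 1 and 4. The same order held for Apoc2, an activator of lipoprotein lipase, at 11.82, 13.38, 13.68 and 11.39 in crypts, with villi at 15.72 to 16.08. Abca1 (-2.94 ± 0.54), which exports cholesterol, Dgat2 (-2.71 ± 0.38), which makes triglyceride, and Npc1l1 (-2.56 ± 0.30), which takes up cholesterol, were also higher in villi. Fabp1, the fatty acid binding protein of enterocytes, differed by -0.55 ± 0.18, with crypts at 15.08 to 16.53 and villi at 16.41 to 16.71, and its groups overlapped. It did not pass in the deposited scaling (-0.24, adjusted p = 0.473), without crypt array 4 (-0.25, adjusted p = 0.178) or in the fit of the 8 arrays alone (adjusted p = 0.0731). Clps, the pancreatic colipase, gave 0.90 ± 0.45 and passed only in that fit of 8 arrays (adjusted p = 0.0176).

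The structural genes of microvilli showed a like direction: 26 of 31 tested were higher in villi, 2 in crypts, with a median of -1.72. Pdzk1, a scaffold below the brush border membrane, stood at 9.20, 10.26, 10.80 and 8.87 in crypts and 13.31, 13.74, 13.23 and 12.94 in villi, an 11.5-fold difference (adjusted p = 2.05e-08). Vil1, the actin bundler villin, stood at 13.56, 13.77, 13.91 and 13.73 in crypts and 15.48, 15.53, 15.38 and 15.44 in villi, with little spread in either tissue. Espn (-3.47 ± 0.46), another actin bundler, and Cdhr2 (-2.83 ± 0.31), a cadherin that links microvilli, were also higher in villi. The 2 members higher in crypts were Pls3 (1.66 ± 0.33), a bundler related to the villus-high Pls1 (-2.10 ± 0.27), and the keratin Krt19 (1.29 ± 0.26). Krt20, the keratin of mature epithelium, was 6.03-fold higher in villi.

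**Figure D2:**
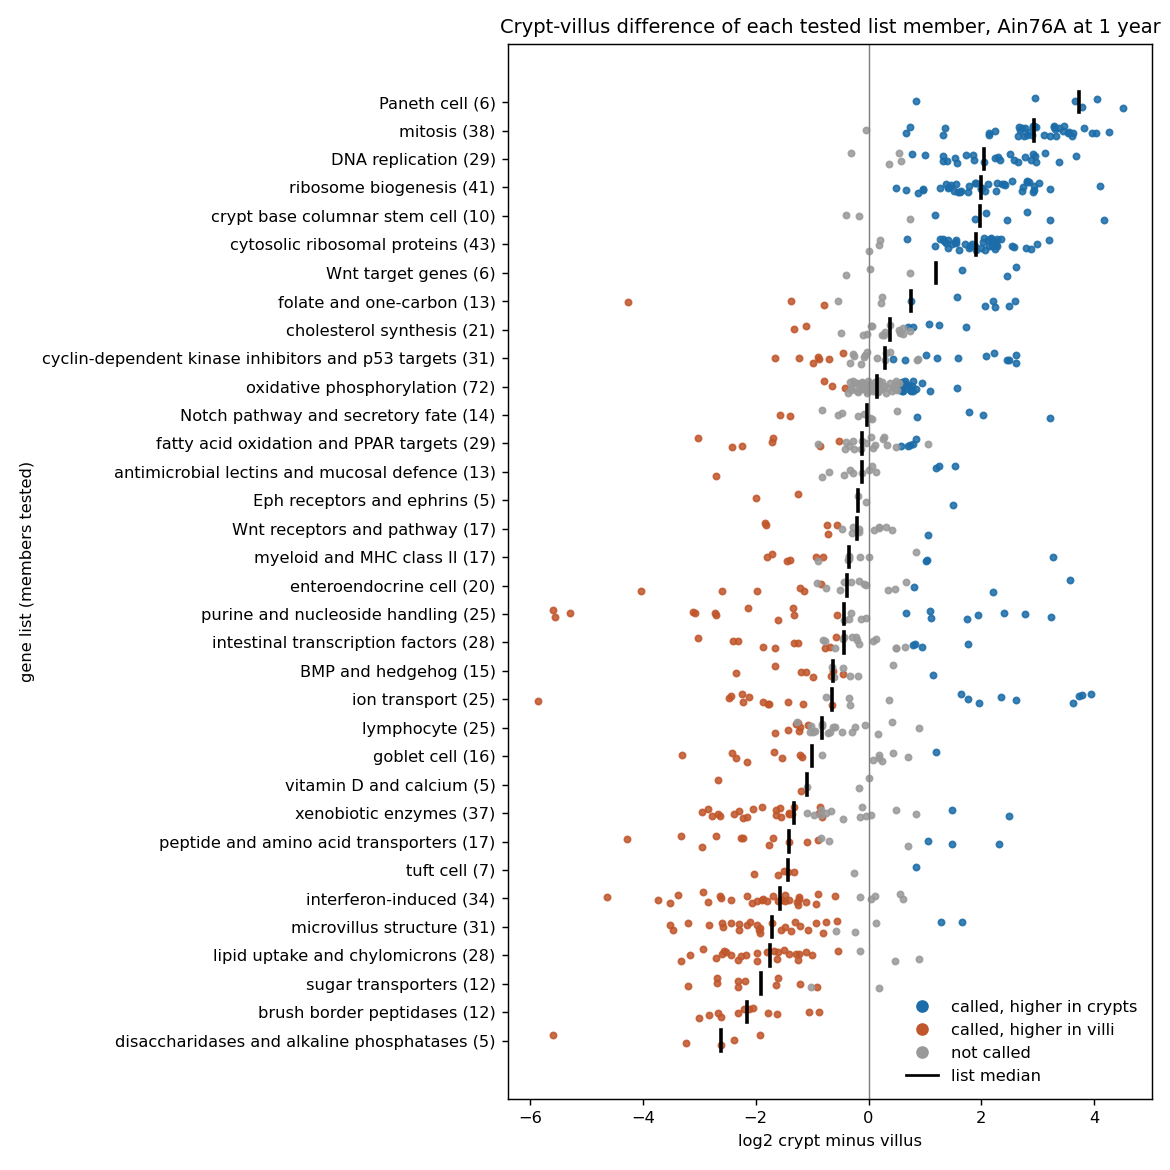
Log2 crypt minus villus of each tested member (points) of the lists with at least 5 tested members, ordered by the list median (black bar); blue and orange points passed at an adjusted p under 0.05 and grey points did not. Paneth cell genes sit at the top with a median of 3.72, disaccharidases and alkaline phosphatases at the bottom with -2.61, and purine handling and ion transport hold members on both sides.

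Of 25 tested genes of purine and nucleoside handling, 8 were higher in crypts and 12 in villi. Those higher in crypts included the enzymes of new purine synthesis Atic (3.23 ± 0.33), Paics (2.78 ± 0.36), Gart (2.41 ± 0.33) and Adsl (1.74 ± 0.28). Atic stood at 12.18, 11.75, 11.73 and 11.99 in crypts and 8.45, 8.41, 9.25 and 8.60 in villi. Those higher in villi included enzymes that break nucleotides down: the surface enzymes Enpp3, Nt5e and Entpd8 (-2.72 ± 0.28), then Ada, which deaminates adenosine, Gda (-3.08 ± 0.32), which deaminates guanine, and Xdh (-3.11 ± 0.29), which makes uric acid. Nt5e, which releases adenosine, stood at 7.04, 8.08, 7.96 and 6.94 in crypts and 13.20, 13.44, 12.76 and 12.87 in villi, or 47.3-fold higher in villi (adjusted p = 1.12e-10). Ada stood at 10.50, 10.99, 11.45 and 9.56 in crypts and 15.73, 15.85, 16.13 and 15.92 in villi.

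Of 13 tested folate genes, 7 were higher in crypts and 3 in villi. The crypt side included enzymes that pass one-carbon units into synthesis, among them Shmt2 (2.59 ± 0.36), Mthfd1 (2.49 ± 0.25) and Mthfd2 (2.20 ± 0.39). The villus side was led by Slc46a1, the proton-coupled carrier that absorbs folate, at 8.83, 9.51, 8.81 and 8.0 in crypts and 12.83, 13.01, 13.29 and 13.09 in villi. Its tissues were separate, with the highest crypt array far below the lowest villus array, and the fold was 19.3 (adjusted p = 2.74e-08).

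Ion transport genes held members called on both sides. Of 25 tested, 9 were higher in crypts and 12 in villi. Slc12a2, which loads chloride into secreting cells, stood at 13.62, 12.58, 12.71 and 13.27 in crypts and 9.67, 8.44, 9.78 and 9.20 in villi (3.78 ± 0.41, adjusted p = 9.7e-10). The potassium channel parts Kcne3 (3.95 ± 0.46), Kcnn4 (3.73 ± 0.37) and Kcnq1 (2.35 ± 0.37), the chloride channel Cftr (1.64 ± 0.36, or 0.72 with an adjusted p of 0.298 for the mean of its probe sets) and the water channel Aqp4 (3.63 ± 0.39) were on the same side. Aqp4 was uneven between its probe sets, since its other measured probe set gave 0.74. On the villus side were the sodium-proton exchangers Slc9a3 (-2.11 ± 0.38) and Slc9a2 (-2.44 ± 0.31), the anion exchanger Slc26a6 (-1.87 ± 0.29) and Guca2b (-2.47 ± 0.41), the hormone uroguanylin.

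Of 17 Wnt receptors and pathway parts, 1 was higher in crypts and 5 in villi, a share of 35.3% called that lies below the 52.4% over all genes. Fzd5, a Wnt receptor, was the crypt member (1.06 ± 0.34), although the mean of its probe sets gave -0.26 (adjusted p = 0.623), and Tcf7l2, the transcription factor that receives the Wnt signal, was higher in villi (-1.81 ± 0.44). Apc, the tumour suppressor that is mutated in another group of the series, stood at 10.28, 9.68, 9.93 and 10.01 in crypts and 10.56, 10.74, 10.51 and 10.35 in villi (-0.57 ± 0.20, adjusted p = 0.0142), and it did not pass without crypt array 2 (adjusted p = 0.0623). Among Wnt target genes the cyclins Ccnd1 (2.62 ± 0.40) and Ccnd2 (2.46 ± 0.33) and the adhesion molecule Cd44 (1.65 ± 0.29) were higher in crypts, 3 of 6 tested. The BMP and hedgehog list held 8 of 15 members higher in villi and 1 in crypts: Smad7, an inhibitor of the pathway (-2.35 ± 0.27), the ligands Bmp2 (-1.12 ± 0.35) and Ihh (-1.20 ± 0.35) on the villus side and the hedgehog receptor Ptch1 (1.14 ± 0.27) on the crypt side. With blanks set to the lowest value of the array, Ptch1 (adjusted p = 0.205) and Bmp2 (adjusted p = 0.0901) did not pass, nor did Bmp2 without villus arrays 3 and 4 (-0.79, adjusted p = 0.14).

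Of 14 Notch pathway genes, 4 were higher in crypts and 2 in villi, a share of 42.9% called against 52.4% over all genes. Sox4, a transcription factor of progenitors, stood at 13.28, 12.28, 12.60 and 13.26 in crypts and 9.47, 9.53, 9.91 and 9.67 in villi (3.22 ± 0.29, adjusted p = 2.65e-11). The receptor Notch2 (2.03 ± 0.32) and the Notch effector Hes1 (1.78 ± 0.31) were higher in crypts, and the Notch antagonist Numb (-1.58 ± 0.24) and the secretory fate factor Atoh1 (-1.39 ± 0.27) in villi. Of 28 intestinal transcription factors, 10 were higher in villi and 4 in crypts, a share of 50% called that lies near the same 52.4%. Creb3l3, a membrane-bound factor of lipid metabolism, differed most (-3.01 ± 0.34), followed by Klf4, which acts in differentiation, at 12.33, 11.74, 12.53 and 12.28 in crypts and 14.56, 14.77, 14.76 and 14.39 in villi. Cdx2, a factor that sets intestinal identity, gave 0.08 ± 0.27 with overlapping groups and did not pass.

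Of 16 goblet cell genes, 8 were higher in villi and 1 in crypts, a share of 56.2% called against 52.4% over all genes. Muc2, the gel-forming mucin, stood at 13.10, 12.76, 13.77 and 13.26 in crypts and 15.84, 15.31, 15.33 and 15.77 in villi (-2.34 ± 0.28, adjusted p = 7.1e-09). Clca1, secreted with mucus, gave -3.30 ± 0.38, but -1.61 with the mean of its probe sets, which did not pass (adjusted p = 0.0601), while Spink4, a peptide of goblet cells, was higher in crypts by 1.19 ± 0.38. Villus arrays 3 and 4 of Spink4, at 13.60 and 13.89, lay close to its crypt levels of 13.72 to 14.32, and the groups overlapped. Without villus array 2 it gave 0.80 (adjusted p = 0.0833). Of 7 tuft cell genes, 5 were higher in villi, among them the channel Trpm5 (-2.03 ± 0.43), and 1 in crypts. The latter was Cd24a, counted among the Paneth cell genes too, whose call depended on single arrays.

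Of 20 tested enteroendocrine genes, 3 were higher in crypts and 6 in villi, a share of 45% called against 52.4% over all genes. Gcg, the precursor of glucagon-like peptides, stood at 12.19, 13.17, 12.67 and 12.21 in crypts and 8.09, 8.65, 9.82 and 9.41 in villi (3.57 ± 0.41, adjusted p = 2.74e-09). Tac1, the precursor of substance P, was also higher in crypts (2.20 ± 0.31). Nts, the precursor of neurotensin, stood at 7.84, 10.49, 9.63 and 7.83 in crypts and 13.62, 13.72, 11.91 and 12.67 in villi (-4.03 ± 0.69, adjusted p = 4.98e-06). Sst (-2.60 ± 0.49), somatostatin, and Sct (-1.98 ± 0.41), secretin, were higher in villi. Pyy, the precursor of peptide YY, was measured on the 4 villus arrays, at 9.68, 10.13, 9.46 and 9.19, and on no crypt array. The general markers Chga (0.67 ± 0.46) and Chgb (0.47 ± 0.33), granins of secretory granules, did not pass, although both did in the fit of the 8 arrays alone (adjusted p = 0.0325 and 0.0268).

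Interferon-induced genes were higher in villi in 29 of 34 tested members, none was higher in crypts, and the median was -1.57. Ifit1, which binds foreign RNA, stood at 7.10, 7.96, 7.95 and 7.38 in crypts and 11.81, 11.78, 12.35 and 13.00 in villi, a 24.9-fold difference (adjusted p = 8.05e-11). Oasl2, a relative of the oligoadenylate synthetases, stood at 7.99, 8.80, 8.74 and 8.82 in crypts and 11.54, 12.04, 12.58 and 13.09 in villi. The tissues were separate in both genes, and villus arrays 3 and 4 were the highest. Usp18 (-3.51 ± 0.44), which restrains the response, Rsad2 (-2.93 ± 0.46), the antiviral viperin, and B2m (-1.41 ± 0.19), the light chain of MHC class I, had the same direction. Mx1, Oas3, Ifit2 and Irgm2, all products of the interferon response, were measured in villi only. Of 25 tested lymphocyte markers, 7 were higher in villi and none in crypts. That share of 28% lies near the 25.5% of all genes higher in villi and below the 52.4% called in either direction. The mean level of these markers ran from 8.57 to 9.68 on crypt arrays and from 9.35 to 10.15 on villus arrays. Among them, Cd8a, the coreceptor of cytotoxic T cells, gave -1.25 ± 0.50 with overlapping groups, and Cd3e and Cd3d could not be tested. Of 17 myeloid and MHC class II genes, 6 were higher in villi, among them Cd74 (-1.80 ± 0.69), the invariant chain, which overlapped, and 3 in crypts. Those in crypts included Lyz2 (3.27), whose signal cannot be assigned with certainty to Lyz2 rather than Lyz1. The share called in this list, 52.9%, was close to the 52.4% over all genes. Cd8a did not pass without crypt array 1 or 4 or villus array 3 or 4 (adjusted p = 0.0632 to 0.137), nor Cd74 without crypt array 1 or 2 or villus array 1 or 3 (adjusted p = 0.052 to 0.103). The part of these cells in the interferon-induced differences was not tested.

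Promoters of 3 interferon-induced genes are shown for the core of the interferon-stimulated response element, searched as GAAA, any 2 bases and again GAAA, in capitals on either strand. They are again the 160 bases before the RefSeq start (GRCm38.p6): chr19:34640729-34640888 (plus strand) for Ifit1, chr19:34583369-34583528 (plus) for Ifit3 and chr12:26456453-26456612 (minus) for Rsad2.
Ifit1: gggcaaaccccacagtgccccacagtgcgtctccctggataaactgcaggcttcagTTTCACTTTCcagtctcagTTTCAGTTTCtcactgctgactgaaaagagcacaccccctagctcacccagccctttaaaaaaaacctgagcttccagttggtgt
Ifit3: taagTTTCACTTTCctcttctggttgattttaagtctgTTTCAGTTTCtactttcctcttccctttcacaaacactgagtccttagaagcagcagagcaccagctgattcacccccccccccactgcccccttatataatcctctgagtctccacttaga
Rsad2: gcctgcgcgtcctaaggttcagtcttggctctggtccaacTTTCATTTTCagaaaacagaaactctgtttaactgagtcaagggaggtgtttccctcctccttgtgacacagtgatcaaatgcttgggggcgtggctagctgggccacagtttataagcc
Ifit1 and Ifit3 each held 2 copies and Rsad2 held 1. Within 250 bases before the start, 11 of 27 interferon-induced genes matched by symbol held the element, or 40.7%, against 3.04% of all 27025 promoters and 3.07% of the genes higher in villi. In all, 9 motifs were searched, each on both strands. The letters GTTAAT occurred in 4.38% of the promoters of genes higher in villi, CAAAGTC in 4.05%, TTTATGG in 1.64%, AGATAA in 6.41% and the symmetric CACGTG in 8.44%, against 3.81%, 3.52%, 1.52%, 5.88% and 8.95% of the genes tested, in that order. CCGGAAG was found in 18.2% of those higher in crypts and 11.2% of those higher in villi, against 15.3% of the 7249 genes tested that had a promoter in the table. The ribosome biogenesis list held CCGGAAG in 32.4% of 37 promoters.

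Enzymes that handle foreign compounds were higher in villi in 22 of 37 tested members, with 2 higher in crypts and a median of -1.32. The cytochromes Cyp3a25 (-2.84 ± 0.48), Cyp3a13 (-2.78 ± 0.29) and Cyp3a11 (-2.66 ± 0.50) were among the largest differences, and members of this family share sequence. Aldh1b1, a mitochondrial aldehyde dehydrogenase, was the largest exception (2.48 ± 0.37). Energy metabolism gave few calls: of 72 oxidative phosphorylation genes, 18 were higher in crypts and 3 in villi, and the median was 0.15. The share called, 29.2%, lies below the 52.4% over all genes. Of 29 genes in a list of fatty acid oxidation and PPAR targets, 5 were higher in crypts and 7 in villi. Those in villi included Vnn1 (-2.41 ± 0.46), a pantetheinase, and Creb3l3, which is counted among the transcription factors too. The share called in this list was 41.4%.

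In cholesterol synthesis the villus arrays fell into pairs. Of 21 tested genes, 5 were higher in crypts and 2 in villi, with a median of 0.39. This share of 33.3% called lies below the 52.4% over all genes. The mean level of 20 members was 10.71, 10.63, 10.83 and 11.05 on the crypt arrays, 10.05 and 10.10 on villus arrays 1 and 2, and 10.97 and 10.87 on villus arrays 3 and 4. Idi1, which isomerizes the isoprene unit, stood at 12.15, 11.80, 11.98 and 12.10 in crypts and 9.50, 9.51, 11.06 and 11.06 in villi (1.72 ± 0.33, adjusted p = 3.34e-05). Sqle, the squalene epoxidase, stood at 10.71, 10.44, 10.85 and 11.44 in crypts and 8.85, 9.11, 11.31 and 11.24 in villi, and its difference of 0.73 ± 0.44 did not pass. Villus arrays 3 and 4 reached the crypt levels of Sqle, and villus arrays 1 and 2 lay below them. Without villus array 3 the difference of Sqle was 1.13 (adjusted p = 0.0348), and without villus array 4 it was 1.10 (adjusted p = 0.0402). The antimicrobial lectins Reg3g (-0.11 ± 0.61) and Reg3b (0.02 ± 0.40) also varied more among arrays than between tissues. Reg3g ran from 12.78 to 15.38 in crypts and from 12.28 to 15.94 in villi.

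**Figure D3:**
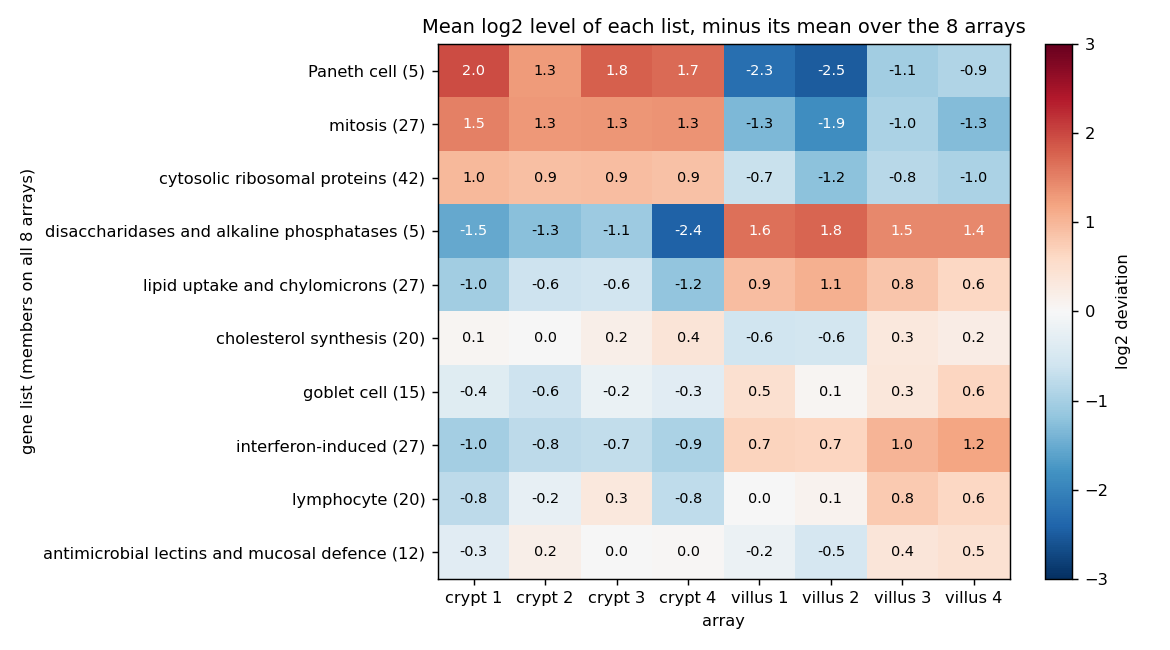
Mean log2 level of 10 gene lists (rows, with the number of members measured on all 8 arrays) on each array (columns), minus the row's mean over the 8 arrays. Villus arrays 3 and 4 stand above villus arrays 1 and 2 in the Paneth cell, cholesterol synthesis, interferon-induced, lymphocyte and antimicrobial lectin rows. They stand below villus arrays 1 and 2 in the disaccharidase and lipid uptake rows. In the mitosis row villus array 3 is the highest of the villus arrays and array 2 the lowest, with arrays 1 and 4 nearly equal. Crypt array 4 is lowest in the disaccharidase row.

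Of 31 tested cyclin-dependent kinase inhibitors, their kinases and p53 targets, 11 were higher in crypts and 7 in villi, a share of 58.1% called against 52.4% over all genes. Cdkn1a, which encodes the inhibitor p21, stood at 12.21, 12.06, 12.21 and 12.21 in crypts and 13.67, 13.59, 13.98 and 14.09 in villi. The crypt arrays were almost equal and the tissues separate, with a difference of -1.66 ± 0.25, or 3.16-fold higher in villi (adjusted p = 4.63e-07). Rb1, the retinoblastoma protein, had the same direction (-1.23 ± 0.18), which the mean of its probe sets did not reach (-0.20, adjusted p = 0.848). On the crypt side were Cdk4 (2.49 ± 0.31), the partner of D cyclins, Cdk6 (2.07 ± 0.30) and Ddit4 (2.62 ± 0.34), a stress-induced inhibitor of growth signalling. Cdkn1b, which encodes p27, gave 0.29 ± 0.40 and did not pass.

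Few markers of tissue below the epithelium could be tested. Blanks were common in general: 52.1% of all values on the 8 arrays were blank, and 15405 probe sets were blank on all 8. Of 27 genes of stroma and muscle, 4 could be tested and 12 were blank on all 8 arrays. Vim, an intermediate filament of mesenchymal cells, was higher in crypts (1.39 ± 0.45; adjusted p = 0.0524 with blanks set to the lowest value of the array), and Fbln1, a matrix protein, in villi (-2.74 ± 0.44). Of 15 endothelial genes, 1 could be tested and 8 were blank on all 8 arrays, and of 17 genes of blood, nerve and pancreas with a probe set, 1 could be tested and 9 were blank throughout.

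Some genes were measured on every array of only 1 tissue. Of 18193 genes with a probe set, 220 were measured on all 4 crypt arrays and no villus array, and 87 on all 4 villus arrays and no crypt array. Blanks fell mostly on weak probe sets: the median level was 9.66 for probe sets measured on all 8 arrays and 7.17 for those measured on 1 to 7. What makes a value blank is unknown here, so these counts do not show that a transcript was absent. In order of level, the crypt genes began with Abhd14a, Rbp7, a retinol binding protein, Vars, the valyl-tRNA synthetase, Racgap1, which acts in cell division, Bub1b, a spindle checkpoint kinase, 2700038G22Rik, Heatr1, which acts in ribosome assembly, and Nuf2, a kinetochore protein. Abhd14a stood at 11.63, 11.42, 11.51 and 11.32 and Racgap1 at 10.59, 10.68, 10.33 and 10.44. The villus genes began with Lama3, a laminin chain, Ly6m, Cdc42ep2, Slc7a15, an amino acid carrier, Stk10, Susd2, Wipf3 and Oas3. Lama3 stood at 11.93, 12.24, 11.47 and 11.64 and Oas3 at 9.89, 10.05, 10.80 and 10.89.

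The crypt-villus difference was then set beside that of other wild-type mice. The 3 comparisons share the same 8 arrays on Ain76A at 1 year. On NWD1 for 1 year, no gene of 8582 differed from Ain76A in its crypt-villus difference at an adjusted p under 0.05 (limma), which is 0%, and 238 did at an unadjusted p under 0.05. Of 3394 genes called in both diets, 3394 had the same direction. The smallest p belonged to Lyz1, with a crypt-villus difference of 3.67 on Ain76A and 1.15 on NWD1 (difference of differences 2.52 ± 0.57, adjusted p = 0.61). The Paneth genes Defa39 (2.54 ± 0.69) and Ang4 (2.50 ± 0.75), whose adjusted p was 0.999, and Pdcd4, an inhibitor of translation (0.94 ± 0.28), came next among the positive ones. Among the negative ones were Trim30a, an interferon-induced regulator (-1.53 ± 0.46), and Adh6a, an alcohol dehydrogenase (-1.15 ± 0.35). None of these passed.

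Over 8372 genes tested in both, the median size of the difference was 0.65 on Ain76A and 0.34 on NWD2 for 1 year. The same medians were 0.65 and 0.51 against NWD1 and 0.65 and 0.55 against the 3-month mice. On NWD2, of 1040 genes called in both, 1040 had the same direction. Of 8372 genes, 49 differed between the diets (0.585%), 39 of them negative, with a larger villus excess or smaller crypt excess on Ain76A (0.466%), and 10 positive (0.119%). Without single arrays this count ran from 1, when villus array 1 or crypt array 3 of NWD2 was left out, to 487, when crypt array 1 of NWD2 was left out. It was 4 without crypt array 1 of Ain76A, and 13 to 76 without each other Ain76A array. With same-numbered crypts and villi as pairs it was 295, and in the deposited scaling 166, of which 15 were positive and 151 negative. Cidec, a lipid droplet protein, stood at 7.02, 6.93, 7.33 and 6.96 in crypts and 11.08, 11.10, 11.66 and 10.98 in villi on Ain76A. Its difference of -4.14 ± 0.37 compared with -0.92 on NWD2 (difference of differences -3.22 ± 0.55, adjusted p = 0.00601). Pxdc1 (-3.34 against -0.83), the creatine carrier Slc6a8 (-2.95 against -1.08), 2010003K11Rik (-3.13 against -0.69) and Krt20 (-2.59 against -1.16) followed, each with an adjusted p from 0.0103 to 0.0161. In the other direction Pdcd4 (2.21 against 0.69), 2410006H16Rik (2.56 against 0.95), Nup133, a nuclear pore protein (3.42 against 1.01), the condensin subunit Smc2 (3.28 against 1.35) and Cdca7 (3.22 against 1.41) had the smallest p. Xdh, Creb3l3, Slc46a1, Apoc2 and Smad7, described above, also passed. Of the 10 genes given with both diets' values, Cidec passed whichever single array was left out. The other 9, and also Xdh, Creb3l3, Slc46a1, Apoc2 and Smad7, each lost the call without crypt array 3 or villus array 1 of NWD2. Nup133, 2010003K11Rik, 2410006H16Rik, Krt20, Smc2 and Cdca7 also lost it without crypt array 1 of Ain76A (limma, adjusted p = 0.0573 to 0.109). Smc2 and Cdca7 lost it without crypt array 2 or 4 of Ain76A and without several further arrays too.

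**Figure D4:**
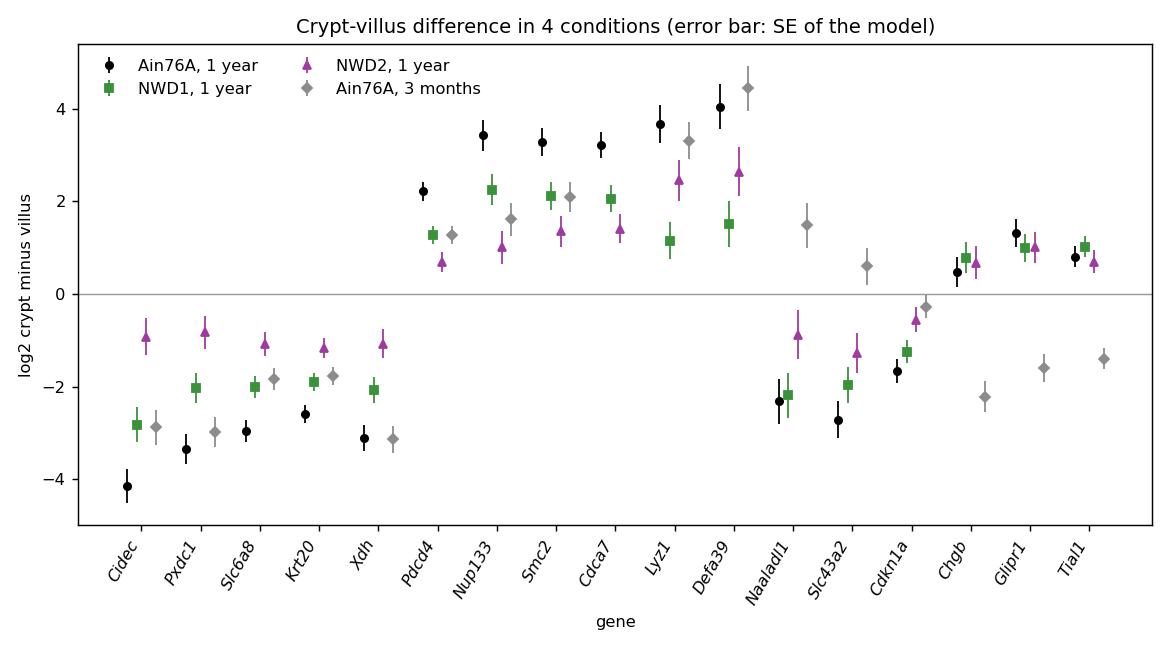
Log2 crypt minus villus of 17 genes in wild-type mice on Ain76A, NWD1 and NWD2 at 1 year and on Ain76A at 3 months, with the SE of the model as the error bar. The difference of Cidec is -4.14 on Ain76A and -0.92 on NWD2 at 1 year, and Glipr1 and Tial1 lie above 0 in the 3 conditions at 1 year and below 0 at 3 months.

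Against wild-type mice on Ain76A for 3 months, 894 of 7609 genes differed in the crypt-villus difference (11.7%), 496 of them positive (6.52%), meaning a larger crypt excess or smaller villus excess at 1 year, and 398 negative (5.23%). In the deposited scaling the balance turned, with 455 positive and 723 negative. Of 2440 genes called between the tissues at both ages, 2392 had the same direction and 48 the opposite. Age and the arm of the study, with its separate set of arrays, cannot be told apart here. The correlation of the 3-month crypt arrays with the mean 3-month villus array, across 8350 probe sets that share the scaling, was 0.731, 0.814, 0.806 and 0.865 for arrays 1 to 4, and that with the mean of the other 3 crypt arrays was 0.907, 0.917, 0.963 and 0.95. Arrays 2 and 4 were the highest in the first measure, array 2 by little over array 3, while array 1 was the lowest in both. Arrays 2 and 4 were chosen for an alternative from earlier results of these data. Without crypt arrays 2 and 4 of the 3-month mice, 204 genes of 8138 passed, 172 of them among the 894. Leaving out single arrays gave 425 genes without 3-month crypt array 2, 519 without 3-month villus array 3, 580 without the 1-year villus array 2, and up to 1241. Pairing same-numbered crypts and villi gave 688 positive and 602 negative calls. Chgb did not pass between the tissues at 1 year (0.47) and was higher in villi at 3 months (-2.21), a difference of 2.69 ± 0.47 (adjusted p = 0.00109). Of 14 enteroendocrine genes tested, 10 were called positive, and 6 without those 2 arrays. Glipr1 (2.90 ± 0.43), the splicing regulators Tial1 (2.19 ± 0.32) and Mbnl1 (1.82 ± 0.31) and the receptor Lpar6 (1.93 ± 0.34) lay above 0 at 1 year and below 0 at 3 months. The 1-year crypt-villus call was lost with the mean of probe sets for Tial1 (0.38, adjusted p = 0.241) and Mbnl1 (1.59, adjusted p = 0.133), and with blanks set to the lowest value for Glipr1 (adjusted p = 0.0508), and Lpar6 did not pass at 3 months (-0.44, adjusted p = 0.13). On the negative side, the amino acid carrier Slc43a2 was higher in villi at 1 year (-2.71) and gave 0.60 at 3 months (-3.31 ± 0.56), and the peptidase Naaladl1 gave -2.32 and 1.49 (-3.80 ± 0.69). Tgfbi (-2.11 ± 0.38), Tmem41a (-1.75 ± 0.32) and the protease Pcsk5 (-1.46 ± 0.25) followed, and the 1-year call of Pcsk5 was lost with the mean of its probe sets (-0.54, adjusted p = 0.119). These 10 genes all passed without crypt arrays 2 and 4 of the 3-month mice too, with adjusted p from 0.000292 to 0.0268. By contrast, the brush border peptidases went from 10 of 12 called negative to 2, and the genes of microvillus structure from 13 of 30 to 1.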

How the data were processed

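RNA of crypts and villi was measured on Affymetrix mouse 3' expression arrays. The deposited values are log2 expression levels of 45101 probe sets, made with GCOS per the submitters' processing notes; 52.1% of cells on the 8 arrays are blank, and what makes a value blank is unknown here. Here the 47 arrays were quantile normalized on the 8350 probe sets measured on all of them. A gene was represented by its probe set with the highest mean, among probe sets with 1 symbol (34945), and tested where at least 3 arrays per tissue were measured, also for NWD2 villi, which have 3. Differences were fitted with limma 3.58.1 (R 4.3.3) over 12 groups with a trended prior, and Benjamini-Hochberg adjusted p-values under 0.05 were called. The fit was tested on simulated data.

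Same-numbered crypt and villus arrays deviated together (correlations 0.123 to 0.218, against -0.202 to 0.0472 for different numbers), so the numbers were treated as pairs in an alternative fit. This pairing comes from the data and not from the labels. Named genes are the 10 largest called differences in each direction among genes measured on all 8 arrays without overlap, the 5 smallest p-values in each direction per difference between conditions, the 8 highest of each tissue among genes measured in 1 tissue only, Cdkn1a and Apc, and list members, with preference for large differences, defining genes and members against their list's median. The comparison and the lists were chosen with earlier results of these data known. Promoters are the first listed per gene in RefSeq (GRCm38.p6). Alternatives covered scaling, filters, probe sets, blanks, pairing and single arrays.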

Additional observations from a re-analysis of the deposited data

Results flagged for a closer look

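A gene's level on 1 array was listed when its distance to the nearest of the other 3 arrays of that tissue exceeded the critical value of Dixon's ratio of gap to whole range. In all, 344 groups of 4 arrays were checked, for the genes named here and for the 5 array measures. Of these, 16 met this, or 4.65%, all of them gene levels, and chance gives about 1 in 20. On crypt array 1 it was Oasl2 at 7.99 (low). On crypt array 2 it was Ccnd1 at 10.43 (low), Ccnd2 at 13.33 (low), Cdkn1a at 12.06 (low) and Kcnn4 at 11.62 (low). On crypt array 3 it was Flywch1 at 9.01 (high) and Mbl2 at 8.65 (high). On crypt array 4 it was Rpl12 at 10.65 (high) and Snrpg at 13.56 (low). On villus array 1 it was Cdk6 at 7.60 (low), Ddit4 at 9.73 (low) and Npm1 at 11.03 (high). On villus array 2 it was Ccne2 at 10.11 (high). On villus array 3 it was Cdca7 at 8.15 (high) and Nup133 at 7.75 (high). On villus array 4 it was Dgat2 at 13.34 (low). The level is in log2 units, and low or high says on which side of the other 3 arrays it lay.

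Among the named genes, the crypt-villus difference at 1 year on Ain76A differed from that of wild-type mice at 3 months by a test of the difference itself, given as the 1-year minus the 3-month difference on the log2 scale. Of all 894 genes so called, 172 were among the 204 called without crypt arrays 2 and 4 of the 3-month mice. The positive values were those of Vim (3.06), Chga (3.04), Glipr1 (2.90), Chgb (2.69), Cd8a (2.67), Clps (2.26), Tial1 (2.19), Sct (2.18) and Lyz2 (2.08). Further positive values were those of Lpar6 (1.93), Mbnl1 (1.82), Nup133 (1.81), Mthfd2 (1.78), Prim1 (1.6), Sox4 (1.6), Paics (1.57), Cd24a (1.54) and Ddit4 (1.47). Further positive values were those of Snrpg (1.46), Ccnd2 (1.34), Snhg1 (1.28) and Pdcd4 (0.94). The negative values were those of Naaladl1 (-3.80), Rdh9 (-3.72), Mbl2 (-3.31), Slc43a2 (-3.31), Slc15a1 (-3.01), Vnn1 (-2.95), Abca1 (-2.92), Pdzk1 (-2.64) and Fbln1 (-2.59). Further negative values were those of Bst1 (-2.55), Dpep1 (-2.52), Espn (-2.51), Ihh (-2.50), Slc6a19 (-2.37), Mme (-2.27), Apob (-2.21), Tgfbi (-2.11) and Cyp3a25 (-2.04). Further negative values were those of Slc9a2 (-1.96), Tmem41a (-1.75), Mgam (-1.69), Oasl2 (-1.54), Pcsk5 (-1.46), Cdkn1a (-1.39), Slc5a1 (-1.33), Cdx2 (-1.30) and Npc1l1 (-1.24). Further negative values were those of Pls1 (-1.16), Slc6a8 (-1.12), Rb1 (-0.95), Vil1 (-0.90) and Krt20 (-0.83). Their adjusted p ran from 0.00019 to 0.0495 (limma).

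The same test set Ain76A against NWD2, both at 1 year, and the values are Ain76A minus NWD2. The positive values were those of Nup133 (2.42), Smc2 (1.93), Cdca7 (1.81), 2410006H16Rik (1.62) and Pdcd4 (1.52). The negative values were those of Slc46a1 (-3.41), Cidec (-3.22), Apoc2 (-2.69), Pxdc1 (-2.51), 2010003K11Rik (-2.44), Creb3l3 (-2.38), Gal3st2 (-2.18), Xdh (-2.03) and Trim30a (-1.98). Further negative values were those of Slc6a8 (-1.88), Cyp3a13 (-1.73), Entpd8 (-1.70), Smad7 (-1.6) and Krt20 (-1.43). Their adjusted p ran from 0.00601 to 0.0495 (limma). All of them except Cidec lost the call without crypt array 3 or villus array 1 of NWD2.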

How the results depend on the processing

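The crypt-villus count of 4620 became 8323 when every probe set was tested in place of 1 per gene (3927 higher in crypts, 4396 in villi). Under the other alternatives it stayed within 1.5 times, including 4908 in the deposited scaling, 3806 with the mean of a gene's probe sets, 5632 from the 8 arrays alone, 4893 with the replicate block (4569 of the 4620 genes among them), 4797 of 13554 genes with blanks set to the lowest value, and 3807 without villus arrays 3 and 4. Leaving out single arrays gave 4149 to 4320. The count without a filter on low values was identical, since a test needs 3 arrays per tissue.

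Against 3-month mice, 496 positive and 398 negative calls became 455 and 723 in the deposited scaling and 688 and 602 with the replicate block. Without crypt arrays 2 and 4 of those mice, an alternative chosen after seeing the data like that without villus arrays 3 and 4, 204 genes passed (148 positive, 56 negative). Leaving out single arrays gave 425 to 1241 genes (240 to 635 positive, 185 to 606 negative). Against NWD2, 166 genes passed in the deposited scaling (15 positive, 151 negative) and 295 with the replicate block, also added after seeing the data (105 positive, 190 negative), and leaving out single arrays gave 1 to 487 (0 to 176 positive, 1 to 311 negative). The block changed no call of the 174 named genes in the crypt-villus comparison. The cause of these changes was not tested.

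Genes measured in 1 tissue only numbered 36 for crypts and 20 for villi when levels had to exceed the array median, and 418 and 199 when a single measured array was allowed in the other tissue. Lists with a median above 0 numbered 12, and 11 to 14 without single arrays. The sign turned for genes that had not passed. With the mean of probe sets Cdkn1b gave -0.16, Cdx2 -0.15 and Reg3b -0.13. The deposited scaling gave -0.080 for Cdx2. Without villus arrays 3 and 4, Cdx2 gave -0.077 and Reg3g 1.30. Without single arrays, Cdc25a ran from -0.094 to 0.041, Cdx2 from -0.071 to 0.25, Reg3b from -0.44 to 0.30, Reg3g from -0.80 to 0.42 and Rps27 from -0.19 to 0.11. Of genes that had passed, Fzd5 turned, to -0.26 with the mean of its probe sets. With 4 arrays per tissue the number of arrays limits the precision.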

Other observations

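Other gene families, chosen by symbol with these results already known, showed the following. Higher in crypts were 14 of 16 tested SF3 and Snrp spliceosome proteins (median 1.48), led by Snrpg (3.13 ± 0.32, SE), all 7 chaperonin subunits, which fold newly made proteins (median 1.80, Cct3 at 2.48 ± 0.26), and 13 of 14 nucleoporins (median 1.51). Of 74 mitochondrial ribosomal proteins 65 were higher in crypts and none in villi (median 1.20), as were all 15 aminoacyl-tRNA synthetases (median 1.17) and 27 of 31 proteasome subunits (median 0.91). Over all genes tested, 26.9% were higher in crypts and 25.5% in villi.

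Families of membrane traffic gave the other direction in fewer members. Of 14 coat proteins of COPI and COPII vesicles, 10 were higher in villi and none in crypts (median -0.55), with Sec24d at -2.08 ± 0.24. Of 15 subunits of the vacuolar proton pump, 9 were higher in villi and 1 in crypts (median -0.61), and of 43 Rab proteins 16 were higher in villi and 2 in crypts (median -0.36). The calcium-binding protein S100a6 differed by -4.12 ± 0.41. Among 36 translation initiation factors, 27 were higher in crypts and 3 in villi, and Eif4e3, a relative of the cap-binding protein, gave -1.58 ± 0.37.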
